A study of Mus musculus with 6 samples.

Results

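Ephrins and Eph receptors were followed in bEND.3 cells, a mouse line of immortalized endothelial cells from brain, after knockdown of the long non-coding RNA Gm39822. The 9 genes were chosen by symbol out of 49315 genes in the count table. They were the ephrin ligands Efnb1, Efnb2, Efna1 and Efna5 and the receptors Ephb2, Ephb3, Ephb4, Epha2 and Epha4, and each matched 1 gene. The 4 GapmeR samples received an antisense LNA GapmeR against Gm39822 at 100 nM, and the 2 negative control samples received a control antisense LNA GapmeR at 100 nM. A GapmeR pairs with its target RNA and leads to cleavage of that RNA by RNase H. Both groups were transfected with a cationic lipid, 1 GapmeR sequence was used against the target, and no untransfected samples were analysed. The labels do not say whether samples came from separate cultures, so p-values measure the spread between these samples, which may be technical.

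Ephrins are ligands held at the cell surface, and Eph receptors are receptor tyrosine kinases that bind them on a neighbouring cell. Ephrin-A ligands are anchored by a lipid and mostly bind EphA receptors, whereas ephrin-B ligands span the membrane and mostly bind EphB receptors. Signals pass into the receptor cell (forward) and into the ligand cell (reverse), and they set repulsion, adhesion and boundaries between cells. In vessels, ephrin-B2 marks arterial endothelium and EphB4 marks venous endothelium.

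Total counts were 29261988 to 37117934 per sample. In GapmeR samples 1 to 4 the targeted Gm39822 was counted 2, 1, 4 and 2 times, and in the controls 61 and 56 times. The level was 0.0689 ± 0.0433 CPM (counts scaled to a common sequencing depth; SD, n = 4) against 1.99 ± 0.334 CPM (SD, n = 2), and the ratio of the groups' counts, scaled for depth, was 0.0335 with a 95% interval of 0.0149 to 0.0658 that covers counting error only. CPM values here are scaled by edgeR's TMM factors. All 12 endothelial markers examined were tested, with summed levels of 9320 to 10700 CPM in the GapmeR samples and 11000 and 11400 CPM in the controls. The 6 neuron markers were also above 0, at 31.5 to 55.9 CPM against 71.5 and 73.3 CPM.

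Of the 9 genes, 3 fell after knockdown and 0 rose. Efna5, an ephrin-A ligand best known for axon guidance, fell the most, by 1.70 on the log2 scale. Efnb1, an ephrin-B ligand, fell by 0.51 on the log2 scale, and Ephb4, the receptor for ephrin-B2 in veins, fell by 0.24. The edgeR quasi-likelihood test called 45.3% of the 18234 genes tested at an adjusted p under 0.05, with 25.4% higher and 20.0% lower, beside 33.3% of the members called. The members' median log2 fold change was -0.09, beside 0.03 over all genes tested. In bulk RNA, fewer cells of a type and less RNA per cell cannot be told apart.

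The promoters of the 3 genes that fell are printed to show the sequence around their starts, since these genes moved in the same direction. Each runs 5′ to 3′ on the gene's strand from 250 bases before to 50 bases after the start, taken from RefSeq on GRCm38.p6. Capitals mark GGGCGG or its reverse complement (a GC box, bound by Sp factors). They also mark TGGGAA or its reverse complement (the core bound by RBPJ, the Notch pathway's DNA-binding factor). Efna5 lies at chr17:62881268-62881567 on the minus strand, Efnb1 at chrX:99135811-99136110 on the plus strand, and Ephb4 at chr5:137349859-137350158 on the plus strand.
Efna5: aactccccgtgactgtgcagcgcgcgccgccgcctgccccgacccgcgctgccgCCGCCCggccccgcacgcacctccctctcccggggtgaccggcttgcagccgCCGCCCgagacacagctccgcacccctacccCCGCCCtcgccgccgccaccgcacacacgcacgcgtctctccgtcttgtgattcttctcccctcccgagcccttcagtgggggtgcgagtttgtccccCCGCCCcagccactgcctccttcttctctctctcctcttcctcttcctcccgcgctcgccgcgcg
Efnb1: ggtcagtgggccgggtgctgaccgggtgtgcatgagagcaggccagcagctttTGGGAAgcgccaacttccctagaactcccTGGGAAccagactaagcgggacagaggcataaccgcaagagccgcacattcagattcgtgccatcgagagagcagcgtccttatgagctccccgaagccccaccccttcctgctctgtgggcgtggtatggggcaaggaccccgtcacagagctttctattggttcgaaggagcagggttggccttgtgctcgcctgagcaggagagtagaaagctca
Ephb4: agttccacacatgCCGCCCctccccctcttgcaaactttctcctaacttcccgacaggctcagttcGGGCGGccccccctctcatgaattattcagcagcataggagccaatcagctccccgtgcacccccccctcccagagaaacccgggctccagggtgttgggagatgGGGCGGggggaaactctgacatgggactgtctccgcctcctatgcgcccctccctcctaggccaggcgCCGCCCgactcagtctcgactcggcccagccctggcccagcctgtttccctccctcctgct
The Efna5 promoter held 4 GC boxes, that of Ephb4 held 4, and that of Efnb1 held 0 GC boxes and 2 RBPJ cores. All 9 genes matched the table, with 10 promoters because Efna1 has 2. Of these 10, 8 held a GC box, 2 an RBPJ core, 1 a TATAAA, and 0 an AP-1 site (TGANTCA) or an E-box (CACGTG), each searched on both strands. Among all 32851 promoters of the same length, 35.7% held a GC box, 25.6% an RBPJ core, 13.6% a TATAAA, 7.81% an AP-1 site and 7.15% an E-box. The GC content of the members' promoters was 54.7% to 73.3%, against a median of 52.7% over all promoters. The 3 printed promoters thus shared no single marked motif, and a match describes letters, not a bound site.

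Efna5 (ENSMUSG00000048915, chr17:62602957-62881317 on GRCm38) was counted 136, 158, 162 and 125 times in GapmeR samples 1 to 4 and 366 and 461 times in the controls. These counts correspond to 4.01, 4.06, 5.22 and 3.87 CPM after knockdown and 13.4 and 14.4 CPM in the controls. Every GapmeR sample lay below both controls, and GapmeR sample 3 was the highest of its group. The mean was 4.29 ± 0.626 CPM (SD, n = 4) after knockdown, against 13.9 ± 0.767 CPM (SD, n = 2). The log2 fold change was -1.70 (SE 0.13, edgeR adjusted p = 3.7e-08), with an approximate 95% interval of -1.96 to -1.44. The 2-sided exact permutation test over samples gave p = 0.0667, the smallest that 4 samples against 2 allow, with 15 splits. Without GapmeR sample 3 the log2 fold change was -1.78.

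The neuron markers fell together with Efna5. Of the 6 neuron markers 6 fell and 0 rose, with a median log2 fold change of -0.84, and their summed level was 35.7, 38.4, 55.9 and 31.5 CPM after knockdown and 71.5 and 73.3 CPM in the controls. Of the 6 glia markers 2, Gfap and Mbp, fell and 0 rose, and Mog had a log2 fold change of 1.33 (edgeR adjusted p = 0.0867). The glia sums were 8.44, 8.98, 13 and 8.45 CPM against 16.1 and 16.9 CPM. The shares called were 100% of the neuron and 33.3% of the glia markers, beside 45.3% of all genes. None of these markers was at 0 in every sample. GapmeR sample 3 was the highest of its group for both sums, as it was for Efna5, and at 77.2% of the control mean its neuron sum lay above its Efna5 level of 37.6%. The part of these markers' cells in the Efna5 result was not tested.

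Efnb1 (ENSMUSG00000031217, chrX:99136061-99149022) is a transmembrane ligand of EphB receptors. It was counted 417, 509, 381 and 358 times after knockdown and 448 and 588 times in the controls, or 12.3, 13.1, 12.3 and 11.1 CPM against 16.4 and 18.4 CPM. The raw counts of the groups overlapped, and after scaling for depth every GapmeR sample lay below both controls. The mean was 12.2 ± 0.823 CPM (SD, n = 4) after knockdown, against 17.4 ± 1.46 CPM (SD, n = 2). The log2 fold change was -0.51 (SE 0.10, edgeR adjusted p = 5.96e-04), with an interval of -0.71 to -0.32.

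Efnb2 (ENSMUSG00000001300, chr8:8617235-8661242), the arterial ephrin, was at 119, 130, 115 and 124 CPM after knockdown and at 106 and 111 CPM in the controls. All GapmeR samples lay above both controls, but the difference did not pass the test. The mean was 122 ± 6.47 CPM (SD, n = 4) after knockdown, against 108 ± 3.44 CPM (SD, n = 2), and the log2 fold change was 0.17 (SE 0.07, interval 0.03 to 0.32, edgeR adjusted p = 0.0657). It passed with scaling by library size alone, at 0.32 (edgeR adjusted p = 0.00268), with at least 10 counts in every sample, at 0.22 (edgeR adjusted p = 0.0242), and without GapmeR sample 3, at 0.22 (edgeR adjusted p = 0.0315). It turned to -0.05 with a GC content offset, which moved the median of all genes by -0.24. With a robust GC offset, which moved that median by -0.02, it was 0.16 (edgeR adjusted p = 0.0835). Arglu1, which ends 1658 bases before Efnb2 on the same strand, had a log2 fold change of 0.60 (edgeR adjusted p = 0.109).

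Efna1 (ENSMUSG00000027954, chr3:89271730-89280951), an ephrin-A ligand induced in endothelium by inflammatory cytokines, was at 17.9, 22.3, 19.9 and 21.5 CPM after knockdown and at 22.0 and 20.5 CPM in the controls. The groups overlapped. The log2 fold change was -0.06 (SE 0.10, edgeR adjusted p = 0.666), with an interval of -0.25 to 0.14.

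**Figure D1:**
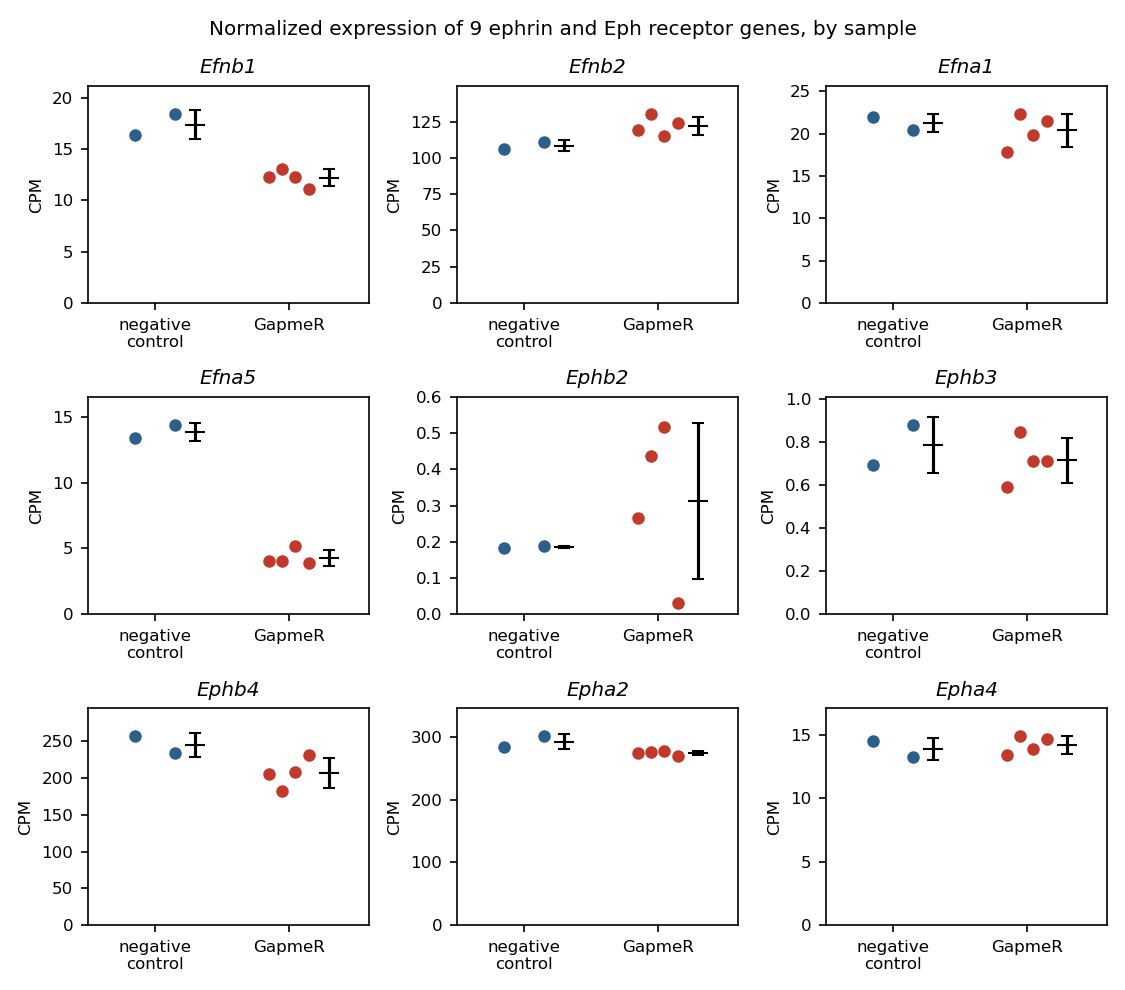
Normalized expression (CPM, each axis from 0) of the 9 genes in each of the 2 negative control (blue) and 4 GapmeR (red) samples, with the mean and SD of each group in black. Efna5 and Efnb1 show all GapmeR samples below both controls by more than the spread within groups, and GapmeR sample 4 and control 2 nearly meet for Ephb4, at 232 and 234 CPM.

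Among the receptors, Ephb4 (ENSMUSG00000029710, chr5:137350109-137374522), which binds ephrin-B2, was at 206, 183, 208 and 232 CPM after knockdown and at 257 and 234 CPM in the controls. All GapmeR samples lay below both controls, and GapmeR sample 4 at 232 CPM was close to control 2. The mean was 207 ± 20.3 CPM (SD, n = 4) after knockdown, against 245 ± 16.6 CPM (SD, n = 2), and the log2 fold change was -0.24 (SE 0.09, interval -0.42 to -0.07, edgeR adjusted p = 0.0325). The call was lost without GapmeR sample 1 (edgeR adjusted p = 0.0674), without GapmeR sample 3 (edgeR adjusted p = 0.069), without control 1 (edgeR adjusted p = 0.354) and without control 2 (edgeR adjusted p = 0.087). It was also lost with scaling by library size alone, at -0.10 (edgeR adjusted p = 0.386), and with at least 10 counts required in every sample, at -0.20 (edgeR adjusted p = 0.0898).

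Epha2 (ENSMUSG00000006445, chr4:141301221-141329384), the main EphA receptor for ephrin-A1 in endothelium, was at 274, 276, 278 and 270 CPM after knockdown and at 284 and 301 CPM in the controls. The groups did not overlap, and the log2 fold change of -0.09 (SE 0.07, interval -0.23 to 0.04, edgeR adjusted p = 0.299) did not pass the test. Scaling by library size alone turned it to 0.06, and the GC content offset gave -0.43 (edgeR adjusted p = 3.54e-05). The robust GC offset gave -0.09 (edgeR adjusted p = 0.325). Epha4 (ENSMUSG00000026235, chr1:77367182-77515107), which binds ligands of both classes, was at 13.4, 14.9, 13.9 and 14.7 CPM against 14.5 and 13.3 CPM. Its groups overlapped, with a log2 fold change of 0.03 (SE 0.10, interval -0.16 to 0.22, edgeR adjusted p = 0.804).

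Ephb3 (ENSMUSG00000005958, chr16:21204620-21223309) and Ephb2 (ENSMUSG00000028664, chr4:136647536-136836326), both receptors of ephrin-B ligands, were scarce. Ephb3 had 20, 33, 22 and 23 counts after knockdown and 19 and 28 in the controls, with a log2 fold change of -0.14 (SE 0.31, interval -0.74 to 0.47, edgeR adjusted p = 0.746). Ephb2 had 9, 17, 16 and 1 counts against 5 and 6, with a log2 fold change of 0.75 (SE 0.71, interval -0.65 to 2.15, edgeR adjusted p = 0.418). Both genes' groups overlapped, and the intervals include changes larger than those of Efnb1 and Ephb4, so differences of that size could not be shown here. Without GapmeR sample 4, which had 1 count, the log2 fold change of Ephb2 was 1.11 (SE 0.53, edgeR adjusted p = 0.106). In all, the groups of 5 of the 9 genes did not overlap, beside 59.2% of all genes tested.

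Per kilobase of exon, the levels in the controls ran from Epha2 at 62.4 ± 2.64 CPM per kb (SD, n = 2) through Ephb4 at 48.8 ± 3.29, Efnb2 at 14.9 ± 0.475, Efna1 at 6.19 ± 0.313, Efnb1 at 4.37 ± 0.368, Efna5 at 2.65 ± 0.146 and Epha4 at 1.69 ± 0.0951 to Ephb3 at 0.113 and Ephb2 at 0.0146. Neighbours in this order differed by more than their SDs in the controls. After knockdown Efna5, at 0.817 ± 0.119 CPM per kb (SD, n = 4), lay below Epha4, at 1.73 ± 0.0866, which reversed their order. The order of the other genes was the same in both groups' means.

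Ratios of 2 members were also compared within each sample, which needs no scaling between samples. The log2 ratio of Efna1 to Efna5 counts was 2.16, 2.46, 1.93 and 2.47 after knockdown and 0.72 and 0.50 in the controls, a difference of 1.64. The log2 ratio of Efnb2 to Efnb1 was 3.27, 3.31, 3.22 and 3.48 against 2.69 and 2.58, a difference of 0.68. In both, all GapmeR samples lay above both controls. The log2 ratio of Efnb2 to its receptor Ephb4 was -0.79, -0.49, -0.86 and -0.91 against -1.28 and -1.08, a difference of 0.42. Of 7 ratios these 3 did not overlap between groups, each with a 2-sided exact permutation p = 0.0667, the smallest possible, and p = 0.156 after Benjamini-Hochberg adjustment over the 7. The ratios of Efna1 to Epha2, Epha2 to Epha4, Ephb2 to Ephb4 and Ephb3 to Ephb4 overlapped, with differences of 0.03, -0.12, 0.41 and 0.11. The Ephb2 to Ephb4 difference was 1.38 without GapmeR sample 4.

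The 13 other ephrin and Eph receptor genes show what else of the family was present. Of the 11 tested, 5 rose and 2 fell, and Epha6 and Epha8 had too few counts to test. This is 63.6% called, beside 45.3% of all genes tested, with 25.4% higher and 20.0% lower. Efnb3 (ENSMUSG00000003934), a further ephrin-B ligand, had 369, 481, 339 and 343 counts after knockdown and 31 and 42 in the controls. It rose from 1.13 and 1.32 CPM in the controls to 10.9, 12.4, 10.9 and 10.6 CPM, with a log2 fold change of 3.19 (SE 0.16, edgeR adjusted p = 2.05e-10). Wrap53 ends 1257 bases before Efnb3 on the same strand of the GRCm39 annotation, and it rose as well, by 1.00 on the log2 scale (edgeR adjusted p = 5.86e-07), with 767, 847, 738 and 759 counts against 340 and 335. The part of reads running on from Wrap53 was not tested.

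Efna4 had 25, 26, 22 and 20 counts after knockdown and 2 in each control (edgeR adjusted p = 7.94e-05). The ratio, scaled for depth, was 10.1 with a 95% interval of 3.82 to 37.9 that covers counting error only. Adam15 ends 473 bases before Efna4 on the same strand, with 4928, 5155, 4685 and 5399 counts against 4589 and 4910. Its log2 fold change was -0.11 (edgeR adjusted p = 0.324). On the opposite strand 4731419I09Rik shares 168 exon bases with Efna4. The part of these neighbours' reads was not tested. Epha1 rose by 1.57 on the log2 scale (edgeR adjusted p = 4.21e-04), Efna2 by 1.44 (edgeR adjusted p = 0.0174) and Ephb1 by 0.32 (edgeR adjusted p = 0.0178). The Efna2 call was lost without control 1 (edgeR adjusted p = 0.0852), without control 2 (edgeR adjusted p = 0.102) and with the GC content offset (edgeR adjusted p = 0.0589). The Ephb1 call was lost without control 2 and with the replicate block (edgeR adjusted p = 0.095). The GC content offset, which moved the median of all genes by -0.24, turned the log2 fold change of Ephb1 to -0.02. Epha1 shares 1456 exon bases with Zyx on the opposite strand, and since the strand setting of the counting is not given in the sources used here, their reads may be mixed. Zyx itself had a log2 fold change of 0.04 (edgeR adjusted p = 0.759).

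Epha7 fell by 1.11 on the log2 scale (edgeR adjusted p = 0.0238) and Ephb6 by 0.98 (edgeR adjusted p = 0.00244). Epha7 rested on control 2: without it the log2 fold change was -0.50 (edgeR adjusted p = 0.503). Its call was also lost without GapmeR sample 1 (edgeR adjusted p = 0.0529), without GapmeR sample 4 (edgeR adjusted p = 0.0512) and with DESeq2's Wald test (adjusted p = 0.0719), and that of Ephb6 was lost without control 2 (edgeR adjusted p = 0.0549). GapmeR sample 3 was again the highest of its group for both. For Epha7 it was at 66.6% of the control mean, next to control 1 at 67.0% and with control 2 at 133%. For Ephb6 it was at 70.1%, with the controls at 93.7% and 106%, beside 77.2% for the neuron markers and 78.8% for the glia markers in that sample. Epha5, at 0.443, 0.283, 0.677 and 0.217 CPM against 0.694 and 0.909 CPM, did not pass the test (edgeR adjusted p = 0.0569). It passed under 5 of 14 alternatives, among them limma-voom (adjusted p = 0.038) and no filter beyond 1 count (edgeR adjusted p = 0.0352). Epha3 at a log2 fold change of -1.44 (edgeR adjusted p = 0.269), Efna3 at -0.33 and Epha10 at 1.45 did not pass either. Epha3 passed with limma-voom (adjusted p = 0.0423) and Efna3 with the GC content offset (edgeR adjusted p = 0.0344).

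**Figure D2:**
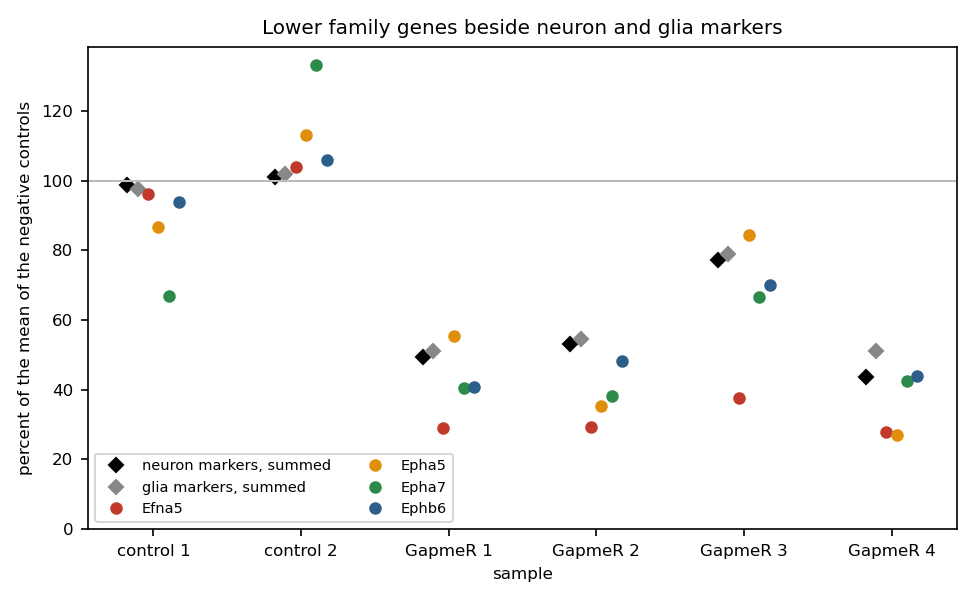
Levels of Efna5, Epha5, Epha7 and Ephb6 and the summed neuron and glia markers in each of the 6 samples, as percent of the mean of the 2 negative controls. GapmeR sample 3 is the highest GapmeR sample for each of the 6, and Efna5 in it (37.6%) lies below its neuron markers (77.2%). Efnb1 and Ephb4, also called lower, are not shown and were highest in GapmeR samples 2 (75.2%) and 4 (94.7%). Most of the glia sum is Mbp.

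**Figure D3:**
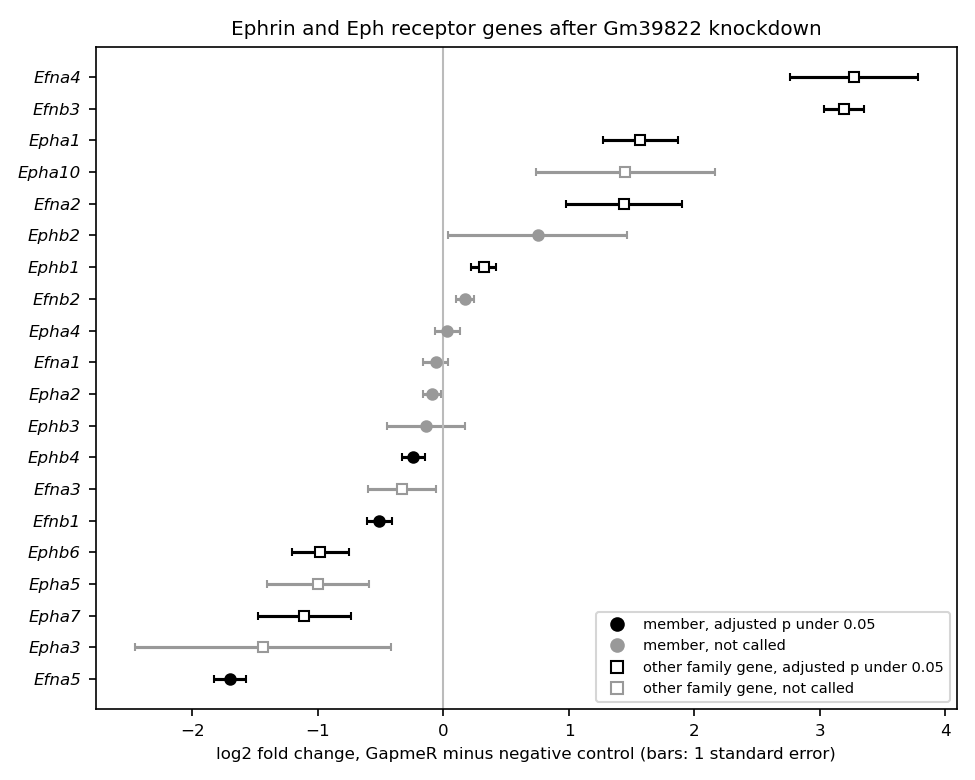
Log2 fold change (GapmeR minus negative control, bars 1 SE) of the 20 ephrin and Eph receptor genes tested, with the 9 members as filled circles, the other 11 as open squares, and black marking an adjusted p under 0.05. Efna5 is the lowest at -1.70, and Efna4 and Efnb3 lie above 3.

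The makeup of the ligand pool is given as each gene's share of the summed CPM per kb of the 8 ephrins. The sum was 31.0 ± 1.58 CPM per kb after knockdown (SD, n = 4) and 29.3 ± 0.568 in the controls (SD, n = 2). Efnb2 made up 54.2% ± 1.22 after knockdown and 50.9% ± 0.636 in the controls, and Efna1 19.1% ± 1.14 and 21.1% ± 1.48. Efna5 went from 9.03% ± 0.323 to 2.64% ± 0.453 and Efnb1 from 14.9% ± 0.967 to 9.87% ± 0.637, while Efnb3 went from 1.18% ± 0.103 to 10.2% ± 0.36. Shares of a sum depend on each other and were not tested.

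The 14 receptors summed to 105 ± 3.59 CPM per kb after knockdown (SD, n = 4) and 116 ± 0.755 in the controls (SD, n = 2). Epha2 held 55.8% ± 2.38 and 53.9% ± 2.63 of the sum and Ephb4 39.2% ± 2.55 and 42.1% ± 2.57, shares that overlapped between the groups. Epha4 held 1.64% ± 0.108 and 1.45% ± 0.0725. Epha2 and Ephb4 were therefore most of the receptor pool in both groups.

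**Figure D4:**
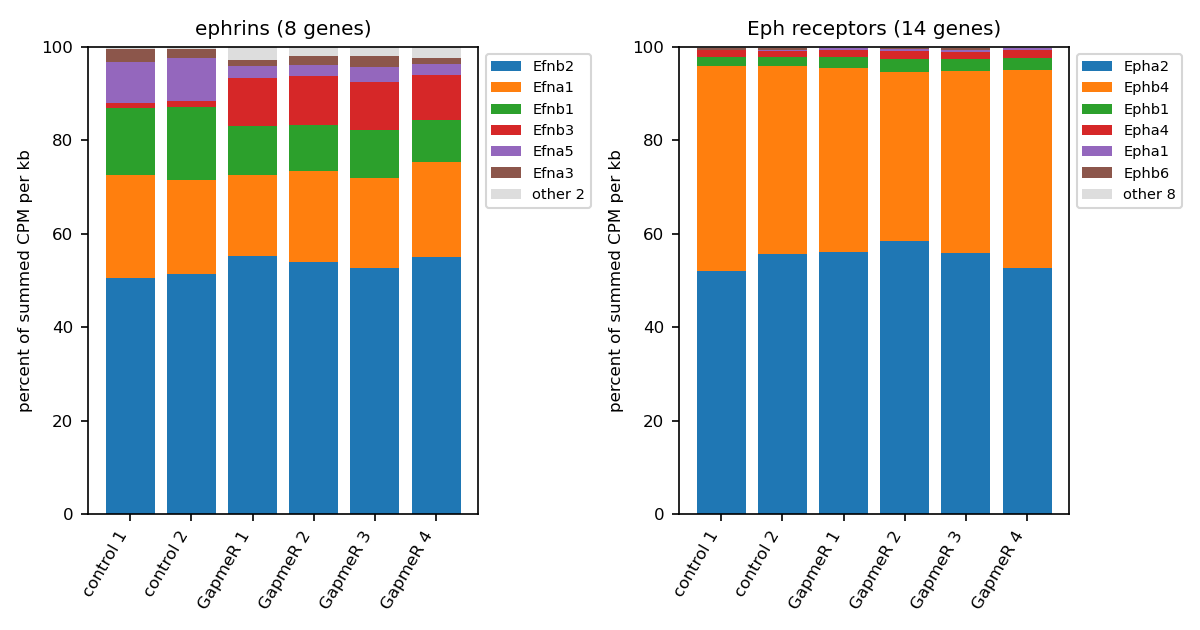
Share of each gene in the summed CPM per kb of the 8 ephrins (left) and the 14 Eph receptors (right) in each sample, with the 6 largest genes coloured and the rest in grey. In the ephrin bars the Efna5 share narrows and the Efnb3 share widens in the 4 GapmeR samples, and in the receptor bars Epha2 and Ephb4 fill most of every sample.

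Genes that act with the family were counted from lists. Of 34 adaptors and effectors of Eph receptors, 32 were tested, 16 fell and 5 rose, with a median log2 fold change of -0.22. This is 65.6% called, beside 45.3% of all genes, of which 20.0% were lower. With library size alone 6 were lower and 8 higher, so the balance of directions depends on the scaling. Grb10, an adaptor that binds activated kinases, rose by 1.97 on the log2 scale (edgeR adjusted p = 3.27e-09), whereas the exchange factor Kalrn fell by 0.83 and the Rac regulator Chn2 by 0.60. Among 9 partners of ephrin reverse signalling 3 fell and 1 rose, with a median of -0.10. This is 44.4% called, close to the 45.3% of all genes. The 3 that fell were Dab2 (-0.49), Stat3 (-0.46) and Tjp1 (-0.41), and Pick1, a PDZ protein that binds ephrin-B tails, rose by 0.48.

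Of 12 genes of ephrin and Eph shedding and turnover, 10 were tested, 6 fell and 0 rose, with a median of -0.26. They included Adam10, the protease that cuts ephrin-A ligands (-0.47), the membrane protease Mmp14 (-0.72) and the gamma-secretase subunit Ncstn (-0.59). Each of these 3 genes, named for large changes among those called, had all GapmeR samples below both controls. The groups of 8 of the 10 genes tested did not overlap, in either direction, beside 59.2% of all genes tested. The 6 genes called of 10 stand beside 45.3% of all genes tested called in either direction and 20.0% lower.

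The arterial list, which includes Efnb2, had 14 of 15 genes tested, 5 lower and 1 higher, with a median of -0.15. Its Sox17, an arterial transcription factor, fell by 0.86, the guidance genes Sema3g by 0.77 and Unc5b by 0.70, and the gap junction gene Gja5 rose by 0.77. The venous list, which includes Ephb4, had 7 genes tested, 5 lower and 1 higher, with a median of -0.50. Emcn fell by 1.33, the venous transcription factor Nr2f2 by 0.58, Flt4 by 0.55 and Nrp2 by 0.50. The 12 endothelial markers had 6 lower and 2 higher, with a median of -0.22. The shares called were 42.9% of the arterial, 85.7% of the venous and 66.7% of the endothelial genes tested, beside 45.3% of all genes. With library size alone the arterial list had 3 lower and 2 higher, and with a 1.5-fold threshold the venous list had 1 of each.

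Markers of other cells that the cultures could hold were also counted. Of 11 macrophage markers tested 2, Cd68 and Fcer1g, rose and 0 fell. The sums were 228, 209, 357 and 390 CPM in GapmeR samples 1 to 4 against 176 and 171 CPM. Samples 3 and 4 thus stood above samples 1 and 2. In the same order Lyz2, not called, was at 79.1, 73.5, 168 and 206 CPM against 68.8 and 62.1 CPM. Cd68 was at 123, 113, 125 and 116 CPM against 87.2 and 89.5 CPM. Of 7 pericyte and smooth muscle markers 2 rose, with sums of 8.56 to 13.1 CPM against 2.16 and 2.26 CPM. Myh11 was the largest part of these sums after knockdown, at 5.37, 5.39, 5.93 and 5.85 CPM against 0.365 and 0.251 CPM. Tagln also rose, and Pdgfrb, Rgs5, Kcnj8, Cspg4 and Acta2 were not called. Of 4 epithelial markers 2 were tested, and 1 of these, Krt8, rose, with 5, 10, 5 and 9 counts against 1 and 2. The epithelial sums were 0.797 to 1.02 CPM against 0.328 and 0.627 CPM. The shares called were 18.2% of the macrophage, 28.6% of the pericyte and smooth muscle and 50% of the epithelial markers tested, beside 45.3% of all genes. The part of these markers' cells in the family's changes was not tested.

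Genes with the most similar pattern were sought for Efna5 and Ephb4, by the root mean square difference of centred log2 CPM over the 6 samples among 12771 genes. For Efna5 they were Nfil3 (0.103), Gadd45b (0.106) and St3gal5 (0.113), with log2 fold changes of -1.83, -1.77 and -1.75. For Ephb4 they were Sparc (0.0232), Tagln2 (0.025) and Emd (0.0319), with log2 fold changes of -0.28, -0.21 and -0.24. As for Ephb4, GapmeR sample 2 was the lowest and control 1 the highest for each of the latter 3 genes. Their choice by likeness over the same samples favours this. Tagln2 was not called (edgeR adjusted p = 0.0577).

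**Figure D5:**
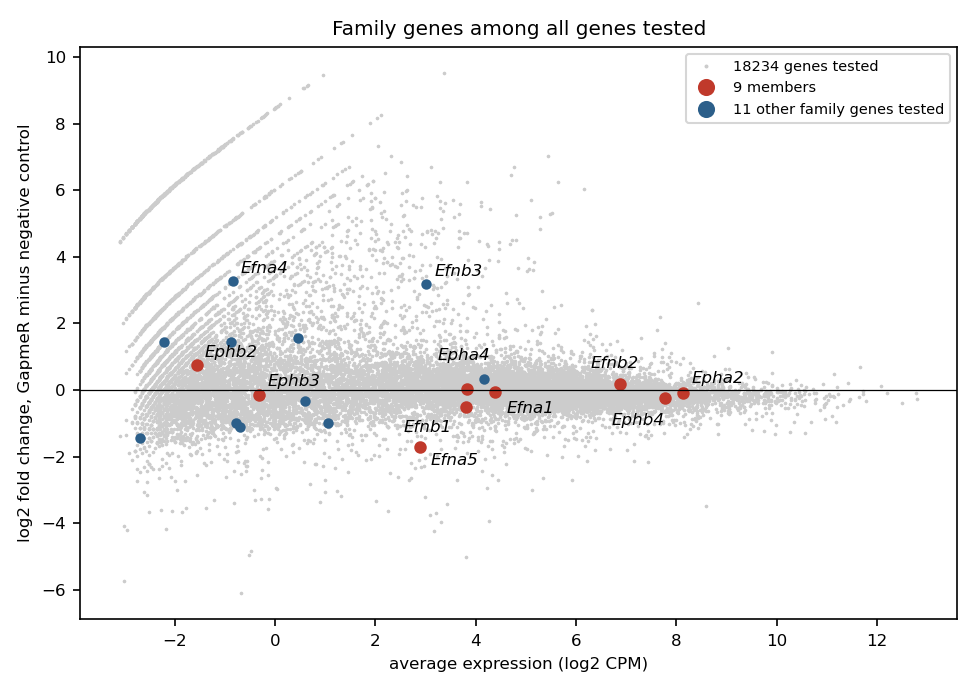
Log2 fold change against average expression (log2 CPM) for the 18234 genes tested in grey, with the 9 members in red and the 11 other family genes in blue. Efna5 lies at -1.70, the other 8 members lie between -0.51 and 0.75, and Efnb3 lies above at 3.19.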

How the data were processed

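RNA from 4 GapmeR and 2 negative control samples was sequenced as paired reads after ribosomal RNA depletion. The submitters' processing notes name Trimmomatic 0.36, STAR 2.5.2b, Subread 1.5.2 and mm10. The authors deposited whole-number read counts per Ensembl gene, without normalization. The counting options, strand setting and Ensembl release are not given in the sources used here, so overlapping genes may share reads. The paper gives 4 samples per group, and 1 further column of counts matched no sample and was not used.

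A gene was tested if 2 or more samples had 5 or more counts (18234 genes), with edgeR 4.0.16 in R 4.3.3 (TMM factors, robust quasi-likelihood test, Benjamini-Hochberg adjustment over all genes, adjusted p under 0.05). The standard error is the size of the log2 fold change divided by the square root of F. Permutation tests of single genes used log2 CPM with a prior count of 2. Those of ratios used log2 of the ratio of the counts as deposited. Exon length, GC content and neighbours came from GENCODE on GRCm39, joined by identifier, and gene and promoter coordinates from RefSeq on GRCm38.p6. Python 3.11.15, pandas 2.3.3 and scipy 1.17.1 were used.

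The members, lists and tests were chosen with earlier results of these data known. All 9 members and 13 other family genes are named, and of each list up to 4 genes with the largest change among those called with a mean of at least 1 CPM, some of which are not reported here. Genes of like pattern are given for the called members with the highest and lowest log2 fold change. Alternatives were DESeq2 1.42.0 size factors, scaling by library size, the Wald test of DESeq2, limma-voom (limma 3.58.1), other filters, a 1.5-fold threshold, the replicate number as a block, a loess offset on GC content (span 0.3) and each sample left out. A robust GC offset was added after the plain one was seen. The functions were tested on simulated data. Totals of 29261988 to 37117934 counts make 3 counts equal to 0.0771 to 0.11 CPM. Counts of replicates differed by more than sampling noise, with a chi-square per degree of freedom of 5.41 to 25.2.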

Additional observations from a re-analysis of the deposited data

Results flagged for a closer look

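A sample lay far from the other samples of the GapmeR group for 4 of the 22 ephrin and Eph receptor genes, by Dixon's ratio of the gap to the range; chance alone gives this in about 1 of 20 groups. Efna5 was highest in GapmeR sample 3, at 5.22 CPM, with a ratio of 0.859. Epha7 was highest in GapmeR sample 3, at 0.58 CPM (ratio 0.85), as was Epha3, at 0.226 CPM (ratio 0.869). In GapmeR samples 1 to 4 Epha7 was counted 12, 13, 18 and 12 times and Epha3 1, 0, 7 and 0 times. Differences between so few counts can be counting error, and the rate of 1 in 20 need not hold for them. Efna5, Epha7 and Epha3 were highest in the sample with the highest neuron and glia marker sums of the GapmeR group, the glia sum being mostly Mbp. Efnb3 was highest in GapmeR sample 2, at 12.4 CPM, with a ratio of 0.833. Groups of 2 controls were not examined in this way.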

How the results depend on the processing

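Efna5 and Efnb1 were lower and called under the 15 alternatives that refit the data, with log2 fold changes of -1.86 to -1.55 and -0.88 to -0.36. With library size only, 6106 genes were called higher and 2135 lower, 1 member was higher, Efnb2 was 0.32, Efna1 0.09, Ephb3 0.01, Ephb4 -0.10 and Epha2 0.06, and the median of all genes moved by 0.14. With the GC content offset, 3311 genes were higher and 7271 lower, 5 members were lower, Efnb2 was -0.05, Efna1 -0.33, Epha2 -0.43, Epha4 -0.14 and Ephb1 -0.02, and the median moved by -0.24. With the robust GC offset, 4615 genes were higher and 4018 lower, and 3 members were lower. In that fit the median moved by -0.02, and Efnb2 was 0.16, Efna1 -0.06 and Epha2 -0.09. With at least 10 counts in every sample, 1 member was higher, Efnb2 was 0.22 and Ephb4 -0.20. With no filter beyond 1 count the median moved by 0.13. With a 1.5-fold threshold 3238 genes were higher and 1390 lower, 1 member, Efna5, was lower, Efnb1 lost its call, and the calls fell to 6 adaptors, 0 reverse signalling partners, 2 shedding genes and 2 venous genes, since fewer changes pass by construction. The cause of the other changes was not tested.

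Leaving out each sample gave 1930 to 3949 lower genes, 0 to 1 higher members, 2 to 3 lower members, 3 to 8 other family genes and 9 to 20 adaptors called. Log2 fold changes ran from 0.14 to 0.23 for Efnb2, -0.10 to 0.01 for Efna1, -0.27 to 0.07 for Ephb3, -0.30 to -0.16 for Ephb4 and 0.00 to 0.11 for Epha4, the Epha2 to Epha4 ratio from -0.22 to -0.02 and the Ephb2 to Ephb4 ratio from -0.02 to 1.38. Without control 2, 3 other family genes were called. The replicate numbers of the titles were not shown to pair the samples: deviations correlated at -0.0895 for number 1 and 0.154 for number 2 over 10030 genes. The codes of the count columns number the samples differently and share too few numbers for a block. With the replicate block, which rests on 4 samples and leaves 1 residual degree of freedom, 4423 genes were higher and 3539 lower, 3 members were lower and 0 higher, Efnb1 was -0.45, Efna5 -1.78, Ephb4 -0.34 and Efnb2 0.20. In that fit Ephb1 lost its call (0.24), and Epha5 (-1.16) and Epha3 (-3.29) gained one. Ephb2 and Ephb3 had at most 33 counts in a sample and wide intervals, and the part of depth in these was not tested.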
